A study of Homo sapiens with 12 samples.

Results

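The HOXB cluster is 1 of the 4 human HOX clusters and lies on chromosome 17. Its members were taken as the 10 protein-coding genes HOXB1 to HOXB9 and HOXB13, out of 20037 protein-coding genes in the RefSeq gene table (build GRCh38.p14). They were chosen by name and not by a cut on any measured value, though earlier results of these data were known. Together with the sequence between them they occupy chr17:48528526-48728750, a span of 200.2 kb, of which gene bodies make up 37.0%. HOXB1 to HOXB9 are packed into 97.8 kb, and a gene-poor interval of 98.4 kb separates HOXB9 from HOXB13. The HOXB3 body contains the whole HOXB4 body, so bases in HOXB4 count for both genes.

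The measurements were CUT&Tag libraries, in which an antibody guides a transposase to chromatin and the released fragments are sequenced. The cells were HepG2/C3A, an established hepatocellular carcinoma line, so the cluster is described in a single tumour line and in bulk cells. One antibody recognised histone H3 trimethylated at lysine 27 (H3K27me3), and the other recognised lysines that carry a succinyl group (pan-succinyllysine, Ksu). Cells received 10 mM sodium succinate dissolved in sterile water, or served as control, which the design text calls vehicle, for 48 h. Of 12 listed samples, the peak lists of 8 were analysed, 2 per antibody and treatment, which the labels call biological replicates. The 4 IgG samples were not analysed here, so no value has an antibody background set beside it. A larger share of cells or gene copies carrying a mark and more of the mark on each copy cannot be told apart in such libraries.

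HOX genes encode homeodomain transcription factors that give cells their position along the body axis, and their order on the chromosome matches the order in which they are switched on along that axis. Where a HOX cluster is silent, Polycomb repressive complex 2 deposits H3K27me3 over long stretches of it, and in expressing cells Trithorax-group proteins and H3K27 demethylases of the Jumonji family counter that mark. Jumonji demethylases use 2-oxoglutarate and are inhibited by succinate, and lysine succinylation is formed from succinyl-CoA. The title of the series names histone succinylation, Jumonji demethylases and repressive chromatin, and the comparisons below ask how both marks lay over the cluster with and without added succinate.

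Each library came as a list of peaks called by SEACR in its stringent mode, and the amount of a mark is given here as cover, the percent of the bases of a gene or span that lie under peaks. The libraries differed much in how many peaks they had. H3K27me3 libraries held 5531 to 19133 peaks covering 3.79 to 6.45% of the 24 chromosomes. Ksu lists held 76702 and 382019 peaks in control libraries and 294568 and 629903 after succinate, covering 2.6, 6.0, 6.1 and 10.7% of the chromosomes. On chromosome 17 alone, Ksu cover was 1.48 and 4.02% in the control pair and 7.24 and 12.5% in the succinate pair. Read depth was not given in the lists, but peak heights were whole multiples of 1 step in each library, within a tolerance of 0.02 steps. The lowest total signal of any peak was 76 and 49 steps in replicate 2 of control and succinate Ksu, against 8977 and 4247 steps in replicate 1, so the call thresholds differed between Ksu libraries. They differed between H3K27me3 libraries too, where the lowest total was 51892 and 211123 steps in control and 132374 and 330250 after succinate. As a check of the cell line, 12 hepatocyte genes were read, and 12 of 12 bodies had no H3K27me3 peak in any library. The same was true of 75% of all protein-coding genes. Of 6 genes of other lineages, 3 (PAX6, MYOD1 and TBX5) had one in all 4 libraries, against 12.3% of all genes. SOX1 and NEUROG1 had one in control replicate 1 alone, and GATA1 had none in any library. These lists do not measure transcription.

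A few sequences of the span are shown because they mark its landmarks on the maps of peaks. The 250 bases upstream of HOXB1, the anterior end gene, lie at chr17:48531012-48531261 on the minus strand. Capitals mark the only match, on either strand, to TGATNNAT, letters of a known PBX-HOX dimer site.
HOXB1 upstream: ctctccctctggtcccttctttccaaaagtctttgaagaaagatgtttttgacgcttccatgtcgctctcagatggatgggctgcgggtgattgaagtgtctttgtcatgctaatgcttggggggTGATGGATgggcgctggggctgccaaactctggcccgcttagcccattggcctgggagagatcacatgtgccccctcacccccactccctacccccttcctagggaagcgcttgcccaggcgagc

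These 250 bases were wholly under H3K27me3 peaks in every library and hold 7 CG pairs. In the RefSeq promoter table (250 bases before to 50 after each start), HOXB1 was the only member listed. It was 1 of 12 promoters inside the span, the other 11 belonging to long non-coding RNA genes and to PRAC1 and PRAC2. All 12 lay wholly under H3K27me3 peaks in all 4 libraries, where 8.1% of all 35116 promoters were overlapped in all 4. TGATNNAT was found in 1 of the 12 and in 7.4% of all promoters, so the match is a description of the sequence only. CG pairs per promoter ranged from 1 to 31 with a median of 7.5, against a median of 14 over all promoters, so wholly covered promoters of the span included both CG-poor and CG-rich ones. The span's promoter at HOXB-AS3, an antisense RNA gene across HOXB5 and HOXB6, and that of PRAC1, a gene next to HOXB13, are printed upstream of their starts with CG in capitals. They lie at chr17:48595708-48595957 on the plus strand and at chr17:48722519-48722768 on the minus strand, with 36% and 63.2% of bases G or C.
HOXB-AS3 upstream: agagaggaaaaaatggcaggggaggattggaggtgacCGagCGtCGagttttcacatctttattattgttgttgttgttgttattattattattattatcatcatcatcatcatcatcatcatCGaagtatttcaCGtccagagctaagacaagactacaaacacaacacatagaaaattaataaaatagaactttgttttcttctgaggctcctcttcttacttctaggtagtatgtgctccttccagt
PRAC1 upstream: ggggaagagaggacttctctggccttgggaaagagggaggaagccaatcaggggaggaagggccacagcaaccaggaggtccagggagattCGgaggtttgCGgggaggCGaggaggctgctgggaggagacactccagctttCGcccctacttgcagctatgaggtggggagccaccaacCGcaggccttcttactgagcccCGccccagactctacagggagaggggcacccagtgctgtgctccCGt

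The span also encodes microRNAs, short RNAs that pair with messenger RNAs through bases 2 to 8 (the seed, in capitals). MIR10A lies within the HOXB3 body, MIR196A1 lies above HOXB9 and MIR3185 lies beside HOXB13. The mature RNAs are on the minus strand.
hsa-miR-10a-5p: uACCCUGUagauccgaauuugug
hsa-miR-196a-5p: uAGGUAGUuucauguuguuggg
hsa-miR-3185: aGAAGAAGgcggucggucugcgg

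hsa-miR-10a-5p lies at chr17:48579904-48579926 and hsa-miR-196a-5p at chr17:48632532-48632553. No 2 of them share a seed. Their hairpins were wholly under H3K27me3 peaks in every library (100% covered) and under no Ksu peak in any.

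H3K27me3 lay over every HOXB gene in every library. All 10 bodies were overlapped by at least 1 base in all 4 libraries, where 12.3% of all protein-coding genes were. All 10 were at least 50% covered in all 4 libraries, against 6.65% of all genes, and 9 of the 10 were wholly covered in all 4, against 2.72%. The exception was HOXB2, which had 92.3% cover in control replicate 2 and 100% in the others. HOXB2 is an anterior gene known for its part in hindbrain segments. HOXB1, known for the fourth hindbrain segment, and HOXB13, known in prostate and hindgut, stand at opposite ends of the span, and both were wholly covered. In control replicate 2 the peak over HOXB1 was a weak one, ranking 5082 of 5813 by total signal. No member was higher, and none lower, in both succinate than in both control libraries, where 3.71% of all genes were higher and 1.13% lower. Taken as 1 region, the bodies were 100, 99.7, 100 and 100% covered in control replicates 1 and 2 and succinate replicates 1 and 2. Cover was thus at or near its upper limit in every library, and the difference of 0.127 points had an exact permutation p of 1 (two-sided, n = 2 against 2).

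**Figure D1:**
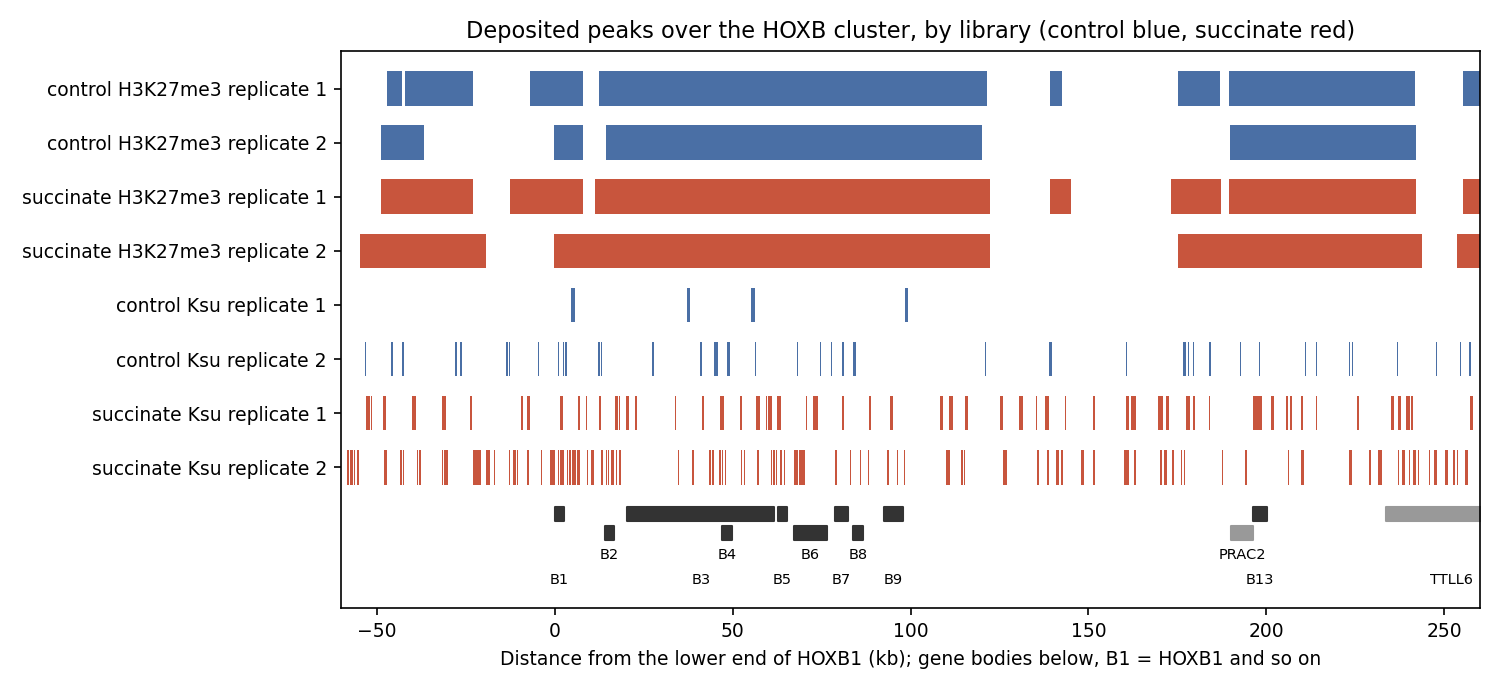
H3K27me3 (upper rows) and Ksu (lower rows) peaks over the HOXB span and its surroundings, with position in kb from the start of the span on the x axis and 1 row per library. Gene bodies are drawn as boxes. H3K27me3 peaks are long blocks over the genes in all 4 libraries, and Ksu peaks are short and more numerous in the succinate libraries.

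Cover of the whole span with H3K27me3, between the genes too, was 71.1 and 62.1% in control cells and 74.6 and 73.6% with succinate. Both succinate libraries were above both control libraries, and the 2 control libraries differed more from each other than succinate replicate 1 did from control replicate 1. The means were 66.6% ± 6.35 (SD, n = 2) and 74.1% ± 0.694 (SD, n = 2). The difference of 7.47 points had an exact permutation p of 0.333 (two-sided), the smallest that 2 against 2 libraries allow, so no such comparison here could pass 0.05. Of 5797 tiles of the span's length with any H3K27me3, 11.9% were likewise higher in both succinate libraries. In every library, 99.1 to 99.3% of 15406 tiles of that length had less cover than the span. Without control replicate 2 the difference was 2.98 points, and without control replicate 1 it was 12. With a common floor on total signal in steps, cover was 63.7 and 58.1% in control against 71.7 and 73.6% with succinate. That difference was 11.7 points (pooled SD 2.94, exact permutation p = 0.333), and with equal numbers of peaks per library it was 6.83 points. Relative to each library's own cover, the span stood at 11.0- and 16.4-fold in the control pair and 13.3- and 16.3-fold in the succinate pair, and these values overlapped (exact permutation p = 1).

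Nearly all of the variation lay in the sequence between genes. From HOXB1 to HOXB9, cover was 95.4 and 93.6% in the control libraries against 96.5 and 100% after succinate. Within that, the interval from HOXB1 to HOXB2 had cover of 61.2 and 47.7% in the control libraries against 70.3 and 100% after succinate. The gene-poor interval from HOXB9 to HOXB13 had 45.8 and 29.4% in control cells and 51.8 and 46.3% with succinate. All 3 were higher in both succinate libraries, each with an exact permutation p of 0.333, and control replicate 2 was the lowest library in each. That library had the smallest H3K27me3 cover of the chromosomes, 3.79%. Relative to each library's cover, HOXB1 to HOXB9 stood at 14.8- and 24.7-fold without succinate and at 17.2- and 22.1-fold with it (difference -0.0949, exact permutation p = 1). Its cover was near the upper limit in every library, so these fold values were set mainly by library cover and cannot decide a direction. The interval from HOXB1 to HOXB2 overlapped on that scale (exact permutation p = 0.667). The interval from HOXB9 to HOXB13 stayed apart, at 7.11- and 7.76-fold against 9.24- and 10.2-fold (exact permutation p = 0.333).

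Most bases of the span had the same state in all 4 libraries. Of the bases of the span, 62.1% were under peaks in all 4 libraries, 7.48% in 3, 2.89% in 2, 5.05% in 1 and 22.5% in none. The bases in none lay wholly in stretches of 16.8 kb (chr17:48650922-48667699) and 28.3 kb (chr17:48673537-48701861), both in the interval between HOXB9 and HOXB13. Bases under peaks in both succinate and neither control library came to 2409, or 1.2% of the span, in 4 stretches, against 0.722% of chromosome 17 and 0.229% of the 24 chromosomes. A larger part, 3258 bases or 1.63% of the span, was under peaks in both replicate 1 libraries alone, against 1.18% of chromosome 17 and 0.809% of the 24 chromosomes. No base of the span was under peaks in both control and neither succinate library. The shared part of any pair of libraries (bases under both divided by bases under either) was 0.832 to 0.953 in the span, 0.616 to 0.748 on chromosome 17 and 0.508 to 0.659 over the 24 chromosomes. It rises with cover, which was much higher in the span, so these values do not by themselves show closer agreement there.

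The covered bases formed a few long peaks. The main block held HOXB2 to HOXB9 and was 109.1 and 105.9 kb long in control and 110.9 kb in succinate replicate 1. In succinate replicate 2 it was 122.7 kb long, because it also took in HOXB1. In the other 3 libraries HOXB1 had a peak of its own, 14.9, 8.3 and 20.6 kb long, and gaps of 4.5, 6.3 and 3.5 kb set it apart from the main block. The bridging of the HOXB1 gap was thus seen in 1 of 2 succinate libraries. A further block held HOXB13 with PRAC1 and PRAC2 and was 52.3, 52.3, 52.4 and 68.6 kb long, again longest in succinate replicate 2.

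The main block ended at 48649974 and 48648701 in control cells and at 48650853 and 48650921 after succinate, a range of 2.22 kb. Its end lay 1.55 kb farther on average in succinate, and the groups did not overlap (pooled SD 0.637 kb, exact permutation p = 0.333). The end of the HOXB13 block, above the span and inside the TTLL6 body, varied by 1.97 kb, at 41.66, 41.72, 41.74 and 43.63 kb above the span. That edge was 0.995 kb farther in succinate (pooled SD 0.948, exact permutation p = 0.333), and 0.0475 kb farther without succinate replicate 2, so this library set its size. The outer edge at the HOXB1 end had a range of 12.43 kb. The starts of the main block and of the HOXB13 block had ranges of 14.59 and 14.46 kb, both set by succinate replicate 2, in which gaps were bridged. For the outer edge, counted from the start of the span, with negative values outside it, it lay at -7.06 and -0.25 kb in the control pair and at -12.68 and -0.27 kb in the succinate pair. Both replicate 2 libraries ended close to HOXB1 and both replicate 1 libraries reached farther. The difference of -2.82 kb, with a pooled SD of 7.08 kb, had an exact permutation p of 0.667 and changed direction when control replicate 2 or succinate replicate 1 was left out.

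The highest signal of the main block fell on nearly the same base in each library, in the body of HOXB6, which HOXB-AS3 also covers. It was at 48602759 in control replicate 1 and succinate replicate 2, and at 48602761-48602762 in the others. The range of 2.5 bp compares with a median of 2910 bp over the 4169 regions found in all 4 libraries, of which 9.74% had highest bases within 10 bp. HOXB6, a central gene of the cluster, is best known for its expression in trunk mesoderm and blood progenitors. In the HOXB13 block the highest base was at 48724671 in control replicate 1 and at 48724672 in the other 3, in the PRAC2 body and 91 to 92 bp below HOXB13. The separate HOXB1 peaks had theirs inside HOXB1, at 48530440, 48530435 and 48530158 in the 3 libraries.

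By height, the main block ranked first in both control libraries and the third in both succinate libraries. Its height was 14.4 and 7.91 times the median peak height of the library in control cells and 9.38 and 8.37 times with succinate, so the groups overlapped. By total signal it ranked 20, 23, 39 and 41, and by width 23, 33, 53 and 61. Its signal per covered base was 2.06 and 1.77 times that of the whole library in the control pair and 1.94 and 1.74 times in the succinate pair. The HOXB13 block was lower, at 4.64 and 2.65 times the median height in control cells and 4.1 and 3.26 times with succinate. The HOXB1 peaks stood at 1.59, 1.1 and 1.21 times the median. The order of the 3 blocks by height was the same in the 3 libraries that had all of them.

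**Figure D2:**
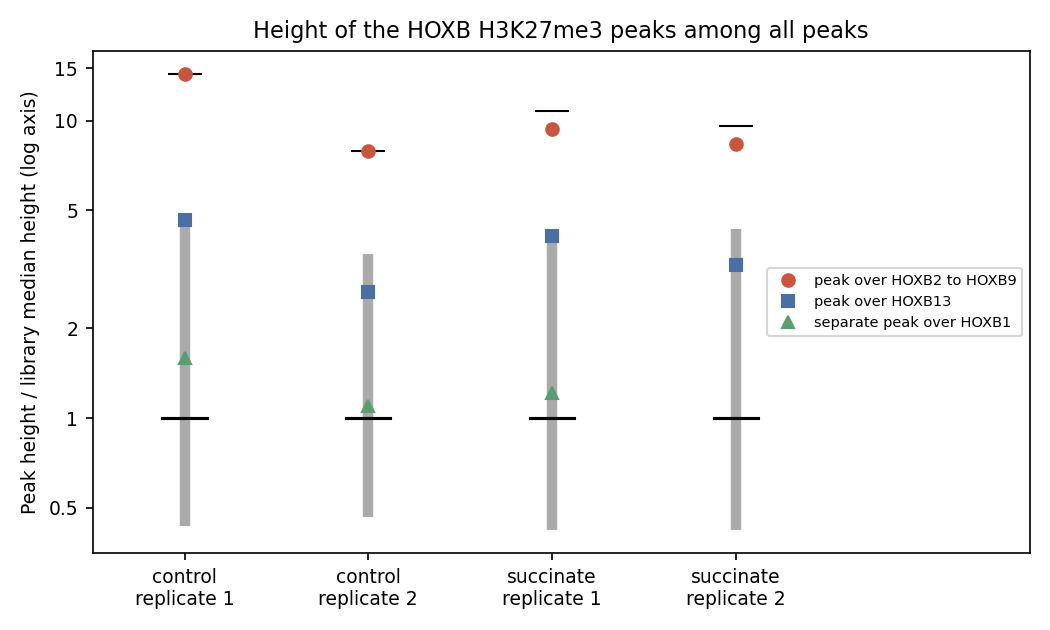
Height of the H3K27me3 peaks over HOXB1, over HOXB2 to HOXB9 and over HOXB13, as a multiple of the median peak height of the same library, with 1 point per library. The main block stands highest in every library, and control and succinate points overlap.

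Beyond the cluster the mark dropped. The 250 kb below the span, toward SKAP1, had cover of 18.0 and 11.0% in the control pair and 19.2 and 20.7% in the succinate pair, and the 250 kb above it had 18.8 and 16.7% against 20.6 and 22.7%. Both flanks were higher in both succinate libraries, as the span was. The HOXB13 block ran 41.66 to 43.63 kb into the flank above and ended in the TTLL6 body. Most of that flank's cover was thus the cluster's own block. PRAC1 and PRAC2 bodies, which lie in the span, were wholly covered in every library. The body of TTLL6, a tubulin polyglutamylase gene, had cover of 24.7 and 15% in control cells and 32.7 and 42.4% with succinate (exact permutation p = 0.333). SKAP1, a T-cell adaptor gene, had 9.32 and 8.48% against 11.6 and 10.1%. The other 5 protein-coding genes within 250 kb, CALCOCO2, ATP5MC1, UBE2Z, SNF8 and GIP, had no H3K27me3 peak in any library. Against flanks of 1 Mb on each side, the span stood higher by 7.59 and 11.7 times the library's cover in the control pair and by 9.14 and 10.7 times in the succinate pair, and these overlapped (exact permutation p = 1).

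Ksu lay thinly over the HOXB span in control cells and more widely after succinate. Cover of the span was 2.08 and 5.57% in control cells and 15.4 and 16.7% with succinate, so the groups did not overlap. The means were 3.83% ± 2.46 (SD, n = 2) and 16.1% ± 0.907 (SD, n = 2). The difference was 12.2 points (pooled SD 1.86, exact permutation p = 0.333), and it was 10.5 to 14 points when any 1 library was left out. Of 14224 tiles of the span's length with Ksu, 50.2% were also higher in both succinate libraries, so this direction was common over the chromosomes. The size depended on which peaks were kept. With equal numbers of peaks per library, cover was 2.08 and 0.755% in control against 7.53 and 4.48%, a difference of 4.59 points. With a common floor on total signal in steps it was 2.08 and 0% against 6.33 and 3.09%, a difference of 3.67 points. The groups stayed apart in both settings, while the order of the control libraries turned round. Over the gene bodies alone, cover was 2.85 and 7.51% in the control pair and 17.4 and 18.5% in the succinate pair.

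Since the Ksu libraries differed in their cover of all chromosomes, the span was also set against each library's own cover. On that scale it stood at 0.801- and 0.928-fold in control cells and at 2.53- and 1.57-fold with succinate. The log2 values were -0.32 and -0.11 in the control pair and 1.34 and 0.65 in the succinate pair, a difference of 1.21 (pooled SD 0.361, exact permutation p = 0.333). In the set of tiles 35.3% were higher in both succinate libraries on this scale, and 76.7% of the 395 tiles on chromosome 17 were. The treatment difference in fold of library was 1.18 for the span, with a median of 0.115 over all tiles and of 0.632 over those of chromosome 17. It was above that of 98.8% of all tiles and of 93.7% of those on chromosome 17, which is a description of where the span lies. Set against chromosome 17 in place of the whole library, the span stood at 1.41- and 1.39-fold in control cells and at 2.13- and 1.34-fold with succinate. These values overlapped, with a log2 difference of 0.27 (pooled SD 0.335, exact permutation p = 1).

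**Figure D3:**
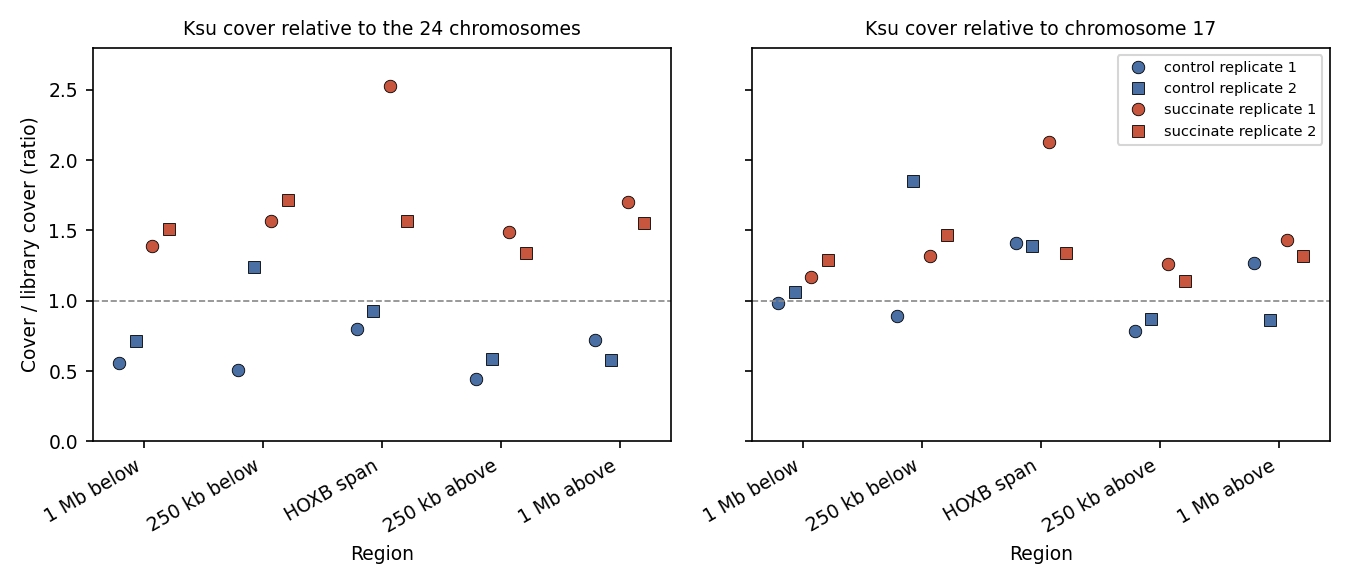
Ksu cover of the HOXB span and its 250 kb and 1 Mb flanks, relative to the whole library and relative to chromosome 17, with 1 point per library. Succinate points lie above control points in every region on the first scale. On the second they overlap them at the span and the 250 kb below, and lie above them in the other flanks.

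Relative to library cover, the flanks moved with the span. The 250 kb below it stood at 0.507 and 1.24 times the library's Ksu cover in the control pair and at 1.57 and 1.72 times in the succinate pair, and the 250 kb above at 0.446 and 0.583 against 1.49 and 1.34 times. Over 1 Mb on each side the same order was seen, with 0.559 and 0.712 against 1.39 and 1.51 below, and 0.721 and 0.58 against 1.7 and 1.55 above. The span minus these 1 Mb flanks came to 0.161 and 0.282 times the library's cover in control cells and to 0.982 and 0.0348 times with succinate, which overlapped (difference 0.287, pooled SD 0.478, exact permutation p = 1). The succinate libraries thus differed from each other more than from control in how far the cluster stood above its surroundings. Relative to chromosome 17, where the span overlapped, the 250 kb above stood at 0.786 and 0.871 in control against 1.26 and 1.14 times. The 1 Mb below had 0.987 and 1.06 against 1.17 and 1.29, and the 1 Mb above 1.27 and 0.866 against 1.43 and 1.32. The 250 kb below overlapped, at 0.895 and 1.85 against 1.32 and 1.47.

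Gene by gene, Ksu cover was uneven. Peaks overlapped 1 and 7 of the 10 members in the control libraries against 8 and 9 after succinate, while 34.8, 71.1, 72.2 and 84.4% of all genes were overlapped in those libraries. Only HOXB3, the longest body, was overlapped in all 4 libraries, against 31.7% of all genes. Of the members, 6 of 10 were higher in both succinate than in both control libraries without overlap, against 46.6% of all genes, and no member was lower, against 0.484%. Relative to library cover it was 4 of 10 against 35.5%. Each of the 6 had an exact permutation p of 0.333, which adjusted over all 20037 genes (Benjamini-Hochberg) came to 0.708, and no gene was under 0.05.

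Among the anterior genes, HOXB1 had Ksu cover of 0 and 16.5% in the control pair and 28.0 and 52.7% in the succinate pair, a difference of 32.1 points. The larger difference among the 6 was that of HOXB5. HOXB2 was covered in succinate replicate 2 alone, at 48.2%. HOXB3 had 5.1 and 7.61% in control against 14.1 and 13.1%. HOXB4, which lies inside HOXB3 and is known for its action on blood stem cells, had 0 and 28.1% against 21.3 and 23.1%, so its groups overlapped.

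Of the central genes, HOXB5 had no Ksu peak in either control library and 32.2 and 41.9% in succinate, a difference of 37.1 points. HOXB6 had 0 and 5.09% against 18.8 and 30.2%, and HOXB7 had 0 and 13.0% against 16.9 and 17.4%. HOXB8, a regulator of myeloid progenitors, had groups that overlapped, with 0 and 26.1% in control cells and 0 and 6.68% with succinate, its highest value being in a control library.

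Of the posterior genes, HOXB9 had no cover in the control pair and 14.5 and 20.2% in the succinate pair. HOXB5 and HOXB9 were the 2 of 10 members overlapped in both succinate and neither control library, against 7.63% of all genes. HOXB13 had 0 and 6.72% in the control libraries against 60.6 and 0% after succinate, so its high value rested on 1 library. A single peak of succinate replicate 1, chr17:48724684-48727180, gave that value. It was 2497 bp wide, the 165th widest of that library's peaks (top 0.056%), and no Ksu base of the gene was covered in succinate replicate 2.

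**Figure D4:**
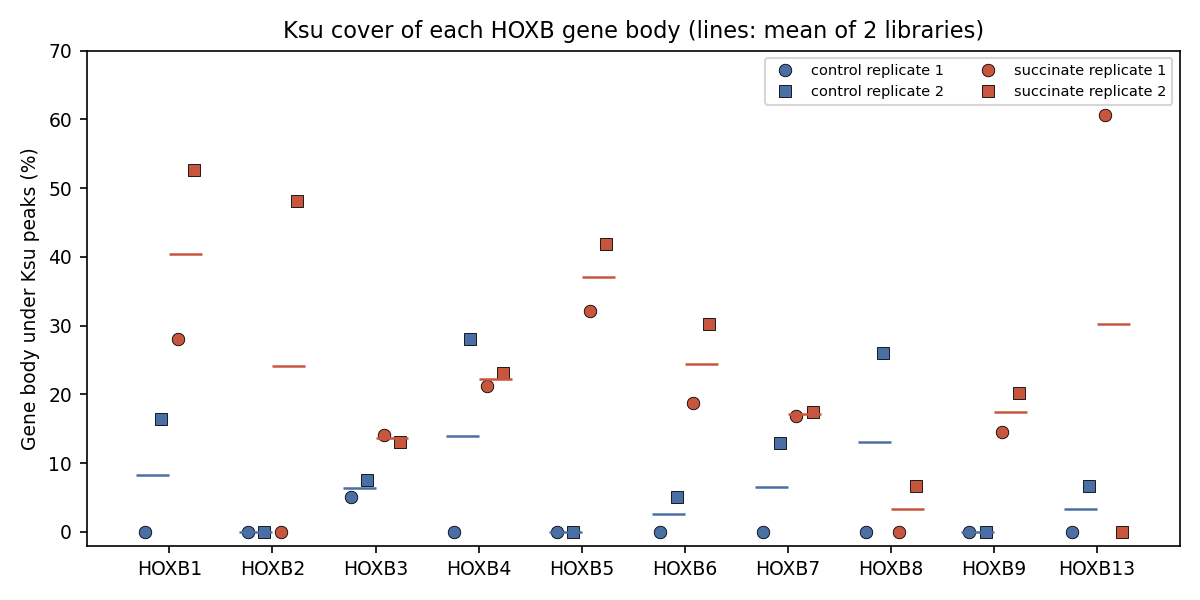
Ksu cover (percent of the gene body under peaks) of the 10 HOXB genes in chromosome order, with 1 point per library. HOXB5 and HOXB9 have cover in both succinate libraries and in neither control library, while HOXB2, HOXB8 and HOXB13 have 1 succinate library at 0.

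Ksu peaks in the span were short and differed in place between replicates. There were 4 and 26 of them in the control libraries against 38 and 62 after succinate, with median widths of 1031, 367, 760 and 535 bp. Per 100 kb this was 0.804 and 1.05 times the density of the library in control cells and 1.99 and 1.52 times with succinate. Of the span, 66.5% lay under no Ksu peak in any library, 27.5% in 1 library, 5.88% in 2, 0.181% in 3 and none in all 4. The succinate libraries shared 7855 bases, which were 25.4% of the Ksu bases of replicate 1 and 23.5% of those of replicate 2. Their shared part was 0.139 in the span, 0.0705 on chromosome 17 and 0.0636 over the 24 chromosomes. The shared part rises with cover. Cover in these libraries was 15.4 and 16.7% in the span, against 7.24 and 12.5% on chromosome 17. The larger value in the span therefore does not show closer agreement there. The control libraries shared no base in the span.

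Bases under Ksu peaks in both succinate and neither control library came to 7492, or 3.74% of the span, in 23 stretches, against 1.12% of chromosome 17 and 0.802% of the 24 chromosomes. Such a percent also rises with the cover of the succinate libraries, which was higher in the span. None of the span had the opposite pattern. The longest stretch, of 697 bp, lay inside HOXB1 (chr17:48530094-48530790), and the next, of 664 bp, inside HOXB3 (chr17:48585313-48585976). Others lay in HOXB4, where 383 bp were shared, in HOXB5, where 327 bp were, and in the non-coding RNA gene LINC02086. For comparison, 0.878% of the span lay under peaks of both replicate 2 libraries alone and 0.885% under control replicate 2 and succinate replicate 1 alone.

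Both marks were measured in the same interval, in separate libraries. Ksu cover was much alike inside and outside the H3K27me3 peaks of the same treatment and replicate number. Inside them it was 5.41% in control replicate 2 and 14.7 and 16.4% in succinate, and outside them it was 5.83, 17.5 and 17.6%. In control replicate 1 it was 2.93% inside and 0 outside, from 4 peaks. The highest H3K27me3 base of HOXB6 lay under no Ksu peak in any library, with the nearest 328 to 330 bp away in succinate replicate 1. That of the HOXB13 block was 11 to 12 bp from the wide Ksu peak of succinate replicate 1. The highest bases of the 3 separate HOXB1 peaks lay under Ksu peaks in both succinate libraries and in neither control library.

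Relative to each library's cover on a log2 scale, H3K27me3 over the span was 3.46 and 4.04 in the control pair and 3.73 and 4.03 in the succinate pair. All 4 H3K27me3 values were above all 4 Ksu values. This scale has an upper limit, full cover of the span, which is lower where a library covers more of the chromosomes. Succinate Ksu replicate 2 covered 10.7% of them, so its limit lay below every H3K27me3 value and its place was fixed. The difference between the antibodies was 3.43 (pooled SD 0.342), with an exact permutation p of 0.0556 over the 36 arrangements within treatments, the smallest they allow. The treatment difference was 0.13 for H3K27me3 and 1.21 for Ksu, and the test of the difference between these, 1.08, gave an exact permutation p of 0.222.

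The other HOX clusters were measured in the same way. H3K27me3 covered 43.0 to 44.2% of HOXA, 95.1 to 100% of HOXC and 71.3 to 83.4% of HOXD, with HOXB at 62.1 to 74.6% between HOXA and HOXC. The spans were unlike, as the 200.2 kb of HOXB include the gene-poor 98.4 kb between HOXB9 and HOXB13. HOXA, HOXC and HOXD are 107.1, 117.2 and 103.4 kb long. HOXB1 to HOXB9 alone had 93.6 to 100% cover. HOXB and HOXC were the clusters in which every gene was overlapped in all 4 libraries (10 of 10 and 9 of 9), where HOXA had 6 of 11 and HOXD 8 of 9. Ksu was higher in both succinate libraries over each cluster, with 2.08 and 5.57 against 15.4 and 16.7% at HOXB, and 0 and 2.04 against 4.55 and 15.7% at HOXA. As fold of library cover, Ksu in the succinate libraries was 2.53 and 1.57 at HOXB, 0.746 and 1.48 at HOXA, 2.03 and 1.65 at HOXC and 1.37 and 1.58 at HOXD, so the replicates that were close in percent cover at HOXB were not close on this scale. The treatment difference of HOXB was set against that of each other cluster for both marks, relative to library cover, in 6 comparisons. For Ksu it was larger at HOXB by 0.242 (HOXA), 0.265 (HOXC) and 0.583 (HOXD) in fold of library, with exact permutation p of 1, 0.667 and 0.667. For H3K27me3 it was larger by 1.41, 1.63 and 2.68, with exact permutation p of 0.333, 0.667 and 0.333, and the adjusted values of all 6 were 0.8 to 1. H3K27me3 cover of HOXC was at or near its upper limit, so its fold values follow library cover and that comparison cannot decide.

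**Figure D5:**
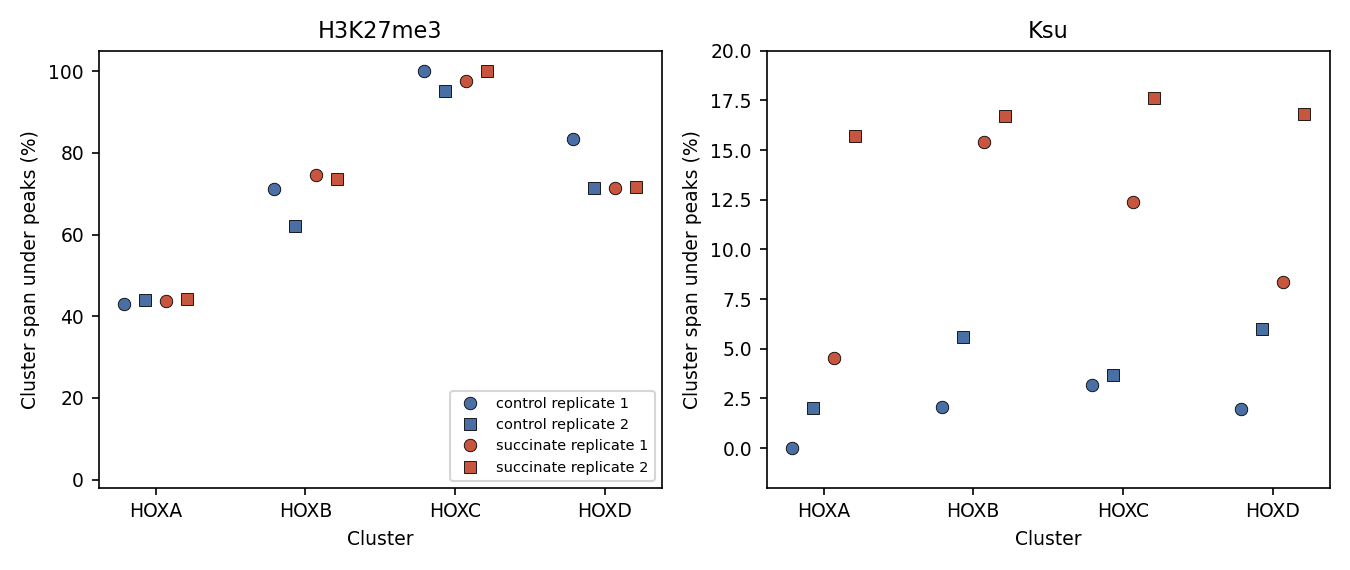
Percent of each HOX cluster's span under H3K27me3 peaks (left) and Ksu peaks (right), with 1 point per library. HOXB, whose span includes the gene-poor interval below HOXB13, lies between HOXA and HOXC in H3K27me3. Both succinate libraries lie above both control libraries in Ksu at every cluster.

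Other genes of the HOX pathway were taken from lists of cofactors and regulators. Genes of the TALE group (PBX, MEIS and PKNOX) encode products that bind DNA together with HOX proteins. Of 9 of them, 3 were overlapped in all 4 libraries and 5 in none, against 12.3 and 75% of all protein-coding genes. PBX4, MEIS3 and PKNOX2 were the 3, with MEIS3 wholly covered. PBX4 had 47.1 and 40.1% in the control libraries against 23 and 39.9% after succinate, and was the 1 gene of the 9 that was lower in both succinate libraries, where 1.13% of all genes were. Of 24 genes known to act on HOX genes, 5 were overlapped in all 4 libraries, 3 in some and 16 (66.7%) in none. Of all genes, 12.3% were overlapped in all 4 and 75% in none. CDX1 and CDX2, caudal factors that act on HOX genes, RARG, a retinoic acid receptor, CYP26B1, which degrades retinoic acid, and the Polycomb gene CBX8 were the 5. CBX8, also on chromosome 17, had cover of 51.5 and 7.06% in the control libraries against 100 and 100% after succinate. CYP26A1, another retinoic acid-degrading enzyme, had 72.0 and 0% against 87.8 and 93.3%. RARB had 0.938% in control replicate 1 alone and CBX2 41.6% in succinate replicate 2 alone. Of the 24, 3 were higher in both succinate libraries, where 3.71% of all genes were.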

How the data were processed

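CUT&Tag peak lists of 8 libraries were analysed. Per the submitters' processing notes, peaks were called with SEACR and the build was hg38. The deposited lists, 1 per library, give for each peak its coordinates and, in the signal unit of the authors, its total and highest signal. The aligner, the scaling, the control track and the threshold are not given in the sources used here. Lists scaled or thresholded differently would change covered bases.

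Covered bases of gene bodies, spans and tiles were computed with Python 3.11.15, numpy 2.4.6 and pandas 2.3.3, with an overlap of at least 1 bp, and figures with matplotlib 3.10.9. Gene, promoter and microRNA positions and sequences come from RefSeq (GRCh38.p14). Groups were compared with two-sided exact permutation tests over libraries. The computation of cover and of steps was checked on simulated data, and that of the permutation p on small sets of numbers with a known answer. P-values measure only the spread between these libraries. The genes named were the 10 members, the protein-coding genes within 250 kb, the HOXA, HOXC and HOXD clusters, and cofactors and regulators overlapped in some but not all H3K27me3 libraries. CBX8 and the genes behind counts of 5 or fewer were named after their values were seen. One cofactor gene is not reported here. Members and lists were chosen with earlier results of these data known. Alternatives were the upper 50% of peaks by total signal, equal numbers of peaks, a common floor in steps, only peaks of 500 bp or more, merging peaks within 1 kb, chromosome 17 as the reference, a replicate block and leaving out each library.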

Additional observations from a re-analysis of the deposited data

How the results depend on the processing

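Of 92 alternative values for 9 results, 74 stayed within the spread between replicates or, for counts, within 1.5 times. Some of these could not move, so the tally does not measure robustness. The 8 values with a replicate block equal the main ones by construction. A count of 10 of 10 bodies could not fall when a library was left out. The width filter and the merging left every H3K27me3 value unchanged, as its peaks and gaps were longer than those limits. Ksu differences in cover depended most on which peaks were kept. The span's difference of 12.2 points was 10.3 with the upper 50% of peaks by total signal, 4.59 with equal numbers of peaks, 3.67 with a common floor and 16.1 with peaks merged within 1 kb. Over gene bodies it was 4.9 with equal numbers, 4.23 with a common floor and 16.8 with merging. The log2 difference relative to the library was 2.19 with equal numbers and 0.27 relative to chromosome 17, and the antibody difference was 3.78 and 2.01 in these settings. The upper 50% of peaks and a common floor each gave a difference of 1.81 points for H3K27me3 over gene bodies and of -10.1 kb for the edge at the HOXB1 end. In both, the count of HOXB bodies overlapped by H3K27me3 in every library was 9 in place of 10, because the HOXB1 peak of control replicate 2 was lost. In these settings no relative Ksu value could be had, because 1 control library in each had no Ksu base in the span.

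Leaving out each library gave 2.98 to 12 points for H3K27me3 over the span, 0.0 to 0.254 over gene bodies, -9.03 to 3.38 kb for the edge at the HOXB1 end (0.584 without control replicate 2 and 3.38 without succinate replicate 1) and 0.0475 to 1.94 kb for the other edge. For Ksu it gave 10.5 to 14 points over the span, 10.4 to 15.1 over gene bodies and 0.862 to 1.55 in log2 relative cover, and 3.25 to 3.6 for the antibody difference. With the replicate number as a block the differences stay the same by construction, because the numbers are balanced over the treatments. Only the p-value changes, for example for the 7.47 points of H3K27me3 over the span (exact permutation p = 0.5, the smallest possible). Deviations of same-numbered libraries correlated at 0.287 for H3K27me3 and 0.0402 for Ksu over gene bodies, and the labels name nothing beyond the number that such libraries share. With 2 libraries a group, no exact test could pass 0.05, and the differing call thresholds limit what the lists of both marks can show.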

Other observations

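Ksu peaks over promoters inside the HOXB span differed between libraries. Of the 12, none was touched in control replicate 1, 2 in control replicate 2, 1 in succinate replicate 1 and 7 in succinate replicate 2. Of all promoters, 2.71% and 8.71% were touched in control and 9.26% and 15.1% in succinate. The promoter of HOXB1 had Ksu cover of 0 and 32.3% in control cells and 0 and 33.0% with succinate, so there both replicate 2 libraries stood alike. That of LINC03057, a non-coding RNA gene above HOXB9, was the only one of the 12 under Ksu peaks in both succinate libraries, at 100 and 78.0%, and in neither control library. That of HOXB-AS2 was wholly covered in control replicate 2 and in no other library.

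Ksu peaks of the span were of middling height for their libraries. Their median height was 25 and 10 steps in the control libraries against 24 and 19 after succinate, where the medians of the whole libraries were 33, 12, 23 and 18. The highest reached 31, 21, 54 and 54 steps.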
